A study of Mus musculus with 3 samples.

Results

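The cytosolic ribosomal protein genes of mouse liver were followed on 3 MoGene-2_0-st arrays, each made from ICR mouse liver RNA. Members were the gene symbols on the array that start with Rpl or Rps and a number, together with the acidic stalk proteins (Rplp) and Rpsa. Ribosomal protein S6 kinases and symbols marked as pseudogenes were left out. The rule found 90 of the 30921 genes on the array: 46 large-subunit genes, 31 small-subunit genes, 9 paralogs and 4 genes that match the name but do not encode a subunit. The last 4 were Rps19bp1 (a protein that binds Rps19), Rps3a2 and Rps3a3 (annotated as processed pseudogenes) and Rpl32l (a predicted gene). The rule used names alone, but the values did decide which probe set stands for a symbol, since its brightest was taken.

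The 3 groups held 1 array each. The first came from mice given no treatment. The second, called TMA here as in the labels, came from mice given distilled water for 2 weeks and then TMA for 24 h. The third, EEC+TMA, came from mice dosed orally for 2 weeks with Ecklonia cava, a brown alga, extracted in ethanol, and then given TMA for 24 h. Treatment began at an age of 8 weeks, and livers were taken at 10 weeks. The sources used here do not say what TMA stands for, its dose, or whether RNA of several mice was pooled. With 1 array per group there is no spread between replicates, so each difference is one between arrays and cannot be read as an effect of treatment, and no p-value is given. No array of mice given the extract alone was analysed here, and the 3 comparisons share arrays, so they are not independent.

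Each ribosome has a small subunit, which reads the mRNA, and a large subunit, which joins amino acids. Every ribosomal protein is needed in matched amounts, and in liver a large part of the translation capacity serves plasma proteins such as albumin. Most ribosomal protein mRNAs start with a C followed by a run of pyrimidines, the terminal oligopyrimidine (TOP) motif, through which the kinase complex mTORC1 and the RNA-binding protein Larp1 set their translation together. Many of these genes also carry small nucleolar RNAs (snoRNAs) in their introns, and the mouse genome holds many processed copies of their mRNAs.

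Some of the members' annotated starts carry these letters. RefSeq promoter windows (GRCm38.p6) were found for 65 of the subunit and paralog genes, with 77 annotated starts. A C at the annotated start followed by 4 bases that are each C or T, read on the transcribed strand, was found at 14 of the 77 starts (18.2%), against 823 of all 32851 starts in the table (2.51%). A run of at least 8 pyrimidines lay within 10 bases before and 20 bases from the start in 31.2% of the members' starts and in 11.2% of all starts. The windows below belong to members whose values are described next. Each covers the 10 bases before the annotated start and the 20 bases from it, 5′ to 3′. The capitals mark its longest run of C and T, or the first where runs tie. In Rps27rt the capitals lie before the start, and an equally long run in small letters begins at it.

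Windows with the TOP letters at the annotated start:
Rpl14 (chr9:120571507-120571536, plus strand): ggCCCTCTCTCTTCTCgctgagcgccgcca
Rpl28 (chr7:4792955-4792984, plus strand): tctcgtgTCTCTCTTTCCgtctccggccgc
Rpl38 (chr11:114668570-114668599, plus strand): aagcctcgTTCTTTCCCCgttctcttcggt
Rps6 (chr4:86857348-86857377, minus strand): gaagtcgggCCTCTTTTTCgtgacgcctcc
Rps10 (chr17:27635225-27635254, minus strand): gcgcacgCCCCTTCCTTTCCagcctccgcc
Rps27rt (chr9:114982720-114982749, minus strand): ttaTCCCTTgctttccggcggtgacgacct

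Windows in which these letters are not at the annotated start:
Rpl18 (chr7:45718061-45718090, plus strand): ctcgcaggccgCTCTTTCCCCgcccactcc
Rpl13a (chr7:45128726-45128755, minus strand): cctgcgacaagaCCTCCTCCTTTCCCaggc
Rplp0 (chr5:115559457-115559486, plus strand): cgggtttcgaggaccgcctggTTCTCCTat
Rpl23 (chr11:97782420-97782449, minus strand): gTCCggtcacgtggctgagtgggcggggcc

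In Rpl18 and Rpl13a the run starts just inside the annotated transcript, so these windows depend on the exact start that is annotated. Of the 14 genes with the letters, 10 were measured on the untreated and TMA arrays. Lower with TMA were 4 of them, Rpl28, Rpl38, Rps6 and Rps27rt, of which Rpl28 and Rps6 were read at another locus. Identical on these arrays were 5, Rpl14, Rpl15, Rps10, Rps15a and Rps21, and 1, Rpl35a, was higher with TMA. Over all measured genes 38.5% were lower, 42.1% identical and 19.4% higher, so the share of lower genes was near the background. Of the 69 members measured on both arrays 50.7% were lower, 20.3% identical and 29.0% higher.

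**Figure D1:**
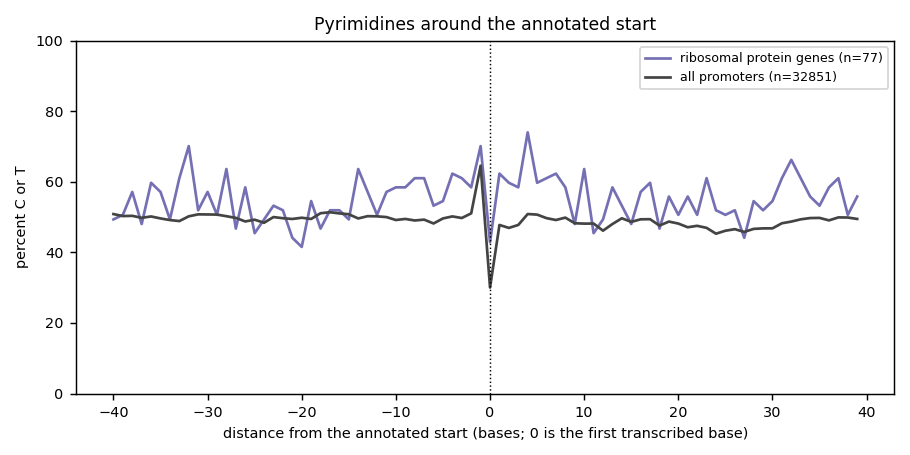
Percent of annotated starts with C or T at each base from 40 before to 39 after the first transcribed base (0), for the 77 starts of ribosomal protein genes (purple) and all 32851 starts in the table (black). The purple line lies above the black line over most of the bases just downstream of the start.

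Values are the deposited log2 expression values. Background was set at the 95th percentile of the array's 1528 probe sets for odorant, vomeronasal and taste receptors, genes with little known role in liver, and a gene at or above it is called measured. Background was 3.15 without treatment, 3.26 with TMA and 3.16 with EEC+TMA. By this rule 69 of the 90 members were measured on all 3 arrays, 16 on none and 5 on 1 or 2. Of the large-subunit genes 35 of 46 were measured on all 3, and of the small-subunit genes 24 of 31.

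The tissue label was checked against liver markers. All 16 hepatocyte markers were measured on every array, and albumin (Alb) stood at 13.29 without treatment, 13.29 with TMA and 13.33 with EEC+TMA, the order kept in all lists of 3 values. The median over the hepatocyte markers was 12.09, 11.62 and 12.04 in that order, and 14 of 16 were lower with TMA than untreated. Of all genes with a mean log2 value of at least 6, 71.5% were lower as well. For Kupffer cells and macrophages the medians were 5.47, 5.67 and 5.69, with 12 of 12 markers measured. For endothelial cells they were 7.48, 6.75 and 7.64. Stellate cell markers had medians of 5.25, 4.95 and 5.29. Of B and plasma cell markers 4 of the 8 on the array were measured on the untreated array, of T and NK cell markers 3 of 10, of bile duct markers 3 of 6, of erythroid markers 4 of 6, of proliferation markers 5 of 8 and of neutrophil markers 0 of 6. The part these cell types have in the differences below was not tested, and in whole liver fewer cells of a type and less RNA per cell cannot be told apart.

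The control probe sets also differed between arrays. The 39 poly-A spike-in probe sets had a median difference of 0.99 for TMA minus no treatment and -0.99 for EEC+TMA minus TMA. The 18 bac spike-in probe sets had medians of 0.44, with 16 higher and 0 lower, and -0.46, with 0 higher and 16 lower. The 1352 exon probe sets of the array's normalization genes had medians of -0.37 and 0.39. The 28S ribosomal RNA probe set (Rn28s1) read 13.37, 13.50 and 13.43, and the 18S probe set (Rn18s) was higher by 0.14 with TMA than untreated. The 45S precursor probe set (Rn45s) read 12.14, 11.69 and 12.27. The part of these shifts in the members' values was not tested.

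The place of a probe set divided the members. For 71 of the 90 members the chosen probe set, the brightest of its symbol, covers the gene's own locus. For 13 members it lies at another locus, on another chromosome for 12 of them: Rpl3, Rpl7a, Rpl12, Rpl19, Rpl27, Rpl27a, Rpl28, Rpl31, Rpl41, Rps6, Rps13, Rps27a and Rpsa. All 13 are marked in the files as cross-hybridising with other transcripts (type 3). In the coordinates of the files, which name no genome build, the Rps6 probe set lies at chr2:75190997-75191847, while the gene's own probe set lies at chr4:86854099-86857412. The Rpl28 probe set lies at chr1:128038527-128039022 and the gene's own at chr7:4792874-4794562.

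A further 6 members were read inside introns. These members, among them Rpl5, Rpl6, Rpl21, Rpl30 and Rps2, were chosen by a probe set annotated to a retained intron, and all 6 of these probe sets lie on a RefSeq snoRNA gene. In 5 of the 6 the ends of the probe set and the snoRNA gene are the same. The Rpl5 probe set, at chr5:107904555-107904648, has the ends of Snord21, and the Rps2 probe set, at chr17:24720772-24720905, overlaps Snora64. A value under these symbols may count the snoRNA, the intron or the mRNA, which cannot be told apart here. In all, 64 chosen probe sets are marked unique (type 1) and 26 are marked type 3.

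The first comparison sets the TMA array against the untreated array, for the values under the members' symbols. The mice of the TMA array had also been given distilled water, so this comparison does not separate TMA from that dosing. Of 69 members measured on both arrays, 20 were higher on the TMA array, 35 were lower and 14 were identical. Over all measured genes 19.4% were higher, 38.5% lower and 42.1% identical. The members' median difference was -0.03 on the log2 scale, with quartiles of -0.36 and 0.09, against 0 for all genes. The sign of this median was not settled, since it was 0.02 after centring each array on its median, 0.01 after loess and 0.03 after quantile normalization. The deposited split of 20 higher and 35 lower became 35 and 34, 35 and 34, and 38 and 31 under these scalings. Of the 35 lower members 28 stayed lower, and of the 20 higher members 18 stayed higher, under both loess and quantile normalization. These were 40.6% and 26.1% of the 69 members, where 28.4% of all measured genes were lower and 18.5% higher under all 3 scalings. The others were Rpl8, Rpl23a, Rpl29, Rps4x, Rps25, Rps27a, Rpsa, Rpl39 and Rps16, all under 0.25 in size. Many identical values become small differences of 1 sign when an array is shifted.

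At least 1.5-fold apart were 9 members, 2 higher and 7 lower, where 8.82% of all measured genes were this far apart (2.28% higher and 6.53% lower). At least 2-fold apart was 1 member, Rps3a3, against 1.89% of all genes. The 9 members were 13.0% of the 69. With a mean log2 value of at least 6, 7 of 40 members (17.5%) were at least 1.5-fold apart, against 16.4% of all genes.

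The members were also counted by the place of the probe set. The 13 members read at another locus had a median of -0.32, with 12 lower and 1 identical. This stayed negative at -0.10 after loess and -0.11 after quantile normalization, with 10 of 13 lower under both. The 50 measured members read at their own locus had a median of 0, with 16 higher, 21 lower and 13 identical. The 6 intron probe sets had a median of 0.41, with 4 higher and 2 lower, and kept these counts under each scaling. By the files' mark, unique probe sets had a median of 0, with 17 higher and 16 lower of 45, and type 3 probe sets a median of -0.31, with 19 of 24 lower.

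Level went with direction too, for members and for all genes. With a split at a mean log2 value of 6, chosen after the values were seen, 28 of 40 members above it were lower on the TMA array, with a median of -0.29. Of all genes above the split 71.5% were lower, with a median of -0.18, so the members' share of 70% was near the background. Higher with TMA were 5 of the 40 (12.5%), against 11.2% of all genes at that level. At this level the place of the probe set made less difference: the 22 members read at their own locus had 15 lower and 1 higher, with a median of -0.27, and the 12 read at another locus had 11 lower, with a median of -0.31. The pooled own-locus median of 0 included 28 members below the split, with a median of 0.04. Below the split 15 of 29 members were higher and 7 lower, while 22.6% of all genes there were higher.

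**Figure D2:**
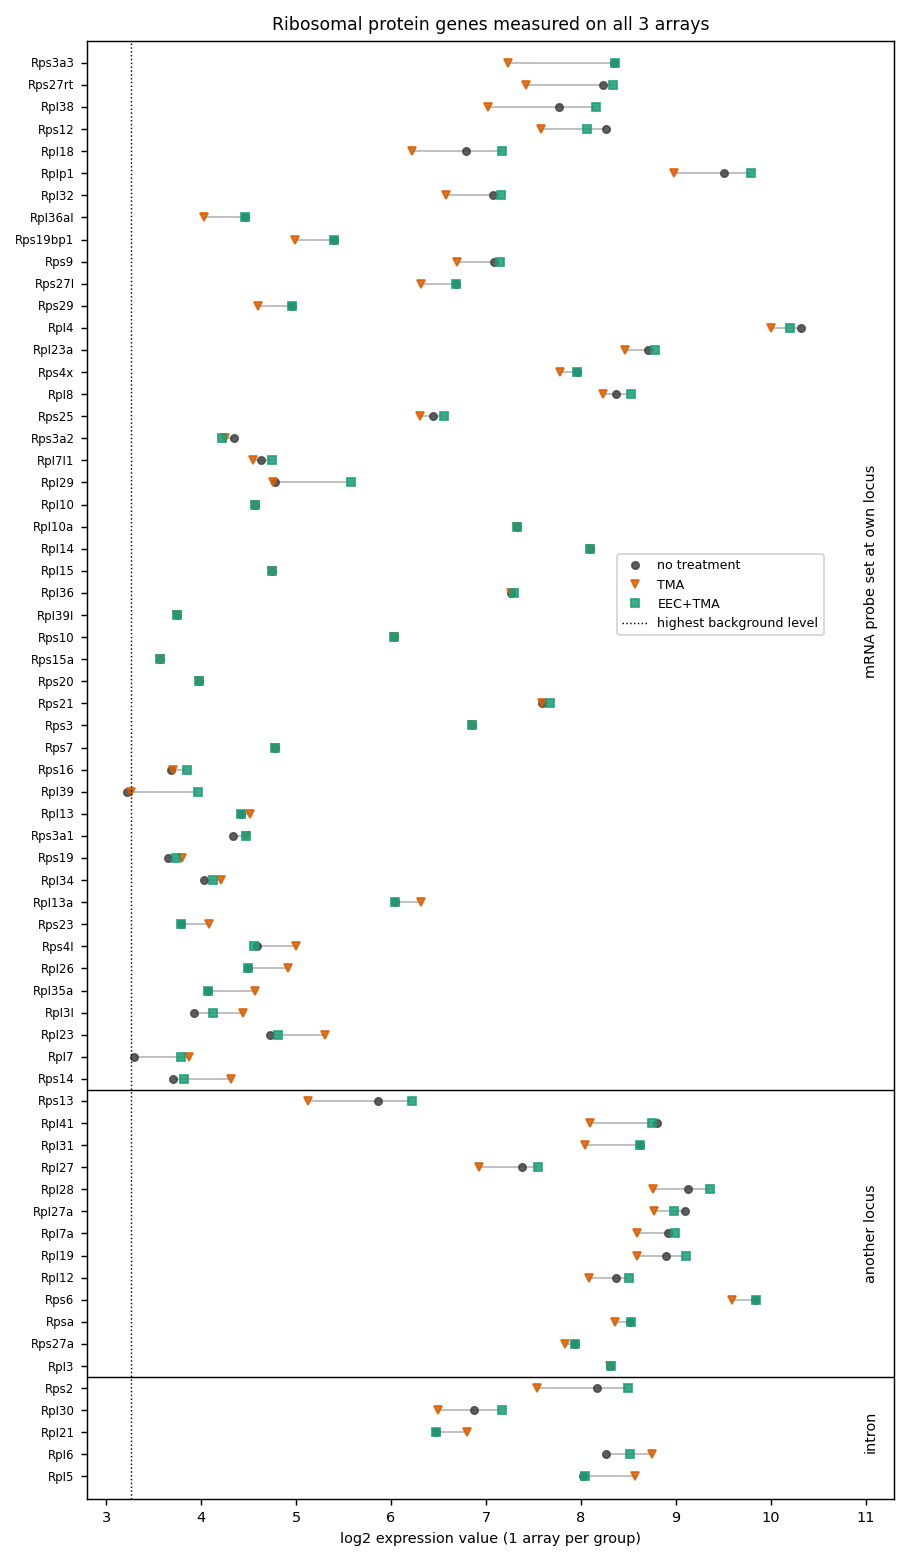
Log2 expression value of 65 of the 69 members measured on all 3 arrays (x axis), 1 point per array: grey circle, no treatment; orange triangle, TMA; green square, EEC+TMA. Rows are grouped by the place of the probe set and ordered by TMA minus no treatment; the grey line spans the 3 values, and the dotted line is the highest of the 3 background levels, 3.26. Orange points lie to the left in 33 rows and to the right in 15, and all 3 points coincide in 10.

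Among large-subunit genes, Rpl38 stood out by the size of its difference from both other arrays. Rpl38, whose loss in mice alters the translation of Hox mRNAs, read 7.77 without treatment, 7.02 with TMA and 8.16 with EEC+TMA. It was lowest with TMA, 1.68-fold under the untreated value, and the probe set (chr11:114668524-114672331) is unique to its own locus. After loess the difference was -0.51 on the log2 scale. Rpl18 had the same order, at 6.79, 6.22 and 7.16, a difference of -0.57 between the TMA and untreated arrays.

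Rpl4, which lines the exit tunnel of the nascent chain, read 10.32, 10.00 and 10.20. Rpl8 read 8.36, 8.23 and 8.53. In both genes the TMA array had the lowest deposited value, by less than 1.5-fold, but the Rpl8 difference turned to 0.09 after loess.

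Rpl41, the shortest of the ribosomal proteins, read 8.80, 8.09 and 8.75 at a probe set on another chromosome. This was 1.64-fold lower with TMA than untreated. The Rpl41 probe set at its own locus went the other way, at 4.17, 4.85 and 4.17. Rpl31 read 8.62, 8.05 and 8.62 at another locus, where its own-locus probe set gave 4.50 on all 3 arrays.

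Rpl28 showed the same contrast of probe sets: 9.12, 8.76 and 9.36 at another locus, and 3.55 on all 3 arrays at its own. Rpl3, part of the peptidyl transferase centre, read 8.31, 8.31 and 8.32 at another locus. Its own-locus probe set read 3.31, 3.49 and 3.31. Rpl19 read 8.89, 8.59 and 9.11 and Rpl27a 9.09, 8.76 and 8.98, both at another locus and lowest with TMA.

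The following 5 large-subunit genes were higher on the TMA array and read at their own locus by unique probe sets. Rpl23, which can bind the p53 regulator Mdm2, read 4.73, 5.30 and 4.81, a difference of 0.57 from no treatment. Rpl7 read 3.29, 3.87 and 3.79, and Rpl35a 4.07, 4.57 and 4.07. Rpl26, known in human cells to bind p53 mRNA, read 4.49, 4.91 and 4.49. Rpl13a, a component of a translation-silencing complex in human monocytes, read 6.04, 6.32 and 6.04. The TMA value was the highest in each of these 5 genes, and in Rpl35a, Rpl26 and Rpl13a the other arrays had identical values. The untreated Rpl7 value lay near the background of 3.15.

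Rplp0, the base of the acidic stalk that recruits elongation factors, read 3.15, 4.19 and 3.42. The untreated value lay just under its background level, so the TMA value was at least 2.06-fold higher. Rplp1, the stalk protein that binds Rplp0 as a dimer with Rplp2, read 9.51, 8.97 and 9.79 and was lowest with TMA. Its probe set is marked type 3. Rplp2 was below background at 2.79 on all 3 arrays. The stalk genes thus gave no shared direction.

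Rpl5 and Rpl11 bind the 5S ribosomal RNA and, outside the ribosome, Mdm2. The Rpl5 probe set on Snord21 read 8.03, 8.57 and 8.04, highest with TMA. The own-locus Rpl5 probe set also read highest with TMA, at 3.52, 3.96 and 3.52. Rpl11 was below background, at 1.74, 1.91 and 1.74. Rpl22, which in mice is needed by developing T cells, was below background at 2.81, 2.57 and 2.61. Rpl10, a late-joining protein near the catalytic centre, read 4.57 on all 3 arrays.

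Rpl6, read on a snoRNA gene, was 8.26, 8.75 and 8.51, highest with TMA, while its own-locus probe set was below background. Rpl21 read 6.48, 6.80 and 6.48 on a snoRNA gene. Rpl30 read 6.87, 6.49 and 7.17 and went the other way, lowest with TMA. Rpl36a read 3.88, 2.88 and 3.58, which makes the TMA value at least 1.55-fold lower than the untreated one.

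Among small-subunit genes, the farthest apart on the TMA side included Rps13, Rps12 and Rps2 below and Rps14 above the untreated value. Rps13 read 5.86, 5.13 and 6.22 at another locus of the same chromosome, 1.67-fold lower with TMA. The own-locus Rps13 probe set was below background. Rps12 read 8.27, 7.58 and 8.07 at its own locus with a type 3 probe set. A further Rps12 probe set on chromosome 19 read 7.17, 6.81 and 7.17, with the same array lowest.

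Rps2, which lies near the mRNA channel, read 8.17, 7.53 and 8.50 on Snora64 and was lowest with TMA. The own-locus Rps2 probe set went the other way, at 4.82, 5.10 and 4.82. The 2 readings of Rps2 therefore gave opposite directions.

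Rps14, whose loss underlies the anaemia of the human 5q- syndrome, read 3.71, 4.31 and 3.82. It was highest with TMA, by 1.52-fold. Rps19, the first gene found mutated in Diamond-Blackfan anaemia, read 3.65, 3.80 and 3.73, a difference of 0.15. Rps3, at the mRNA entry channel, read 6.85 on all 3 arrays.

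Rps6, the substrate of the S6 kinases downstream of mTORC1, read 9.83, 9.59 and 9.84 at another locus. It was lowest with TMA by 0.24, and by 0.04 after loess. The Rps6 probe set at its own locus gave 3.56 on all 3 arrays. Rpsa, which also acts as a laminin receptor, read 8.52, 8.36 and 8.53, and the sign of its difference turned to 0.07 after loess. Rps27a, made as a fusion with ubiquitin, read 7.94, 7.84 and 7.94, and its difference of -0.10 turned to 0.13 after loess. Rps9 read 7.09, 6.69 and 7.15 at its own locus with a unique probe set.

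Of the 69 members measured on all 3 arrays, 11 had the same value on each, among them Rpl10, Rpl10a, Rpl14, Rpl15, Rps3, Rps7, Rps10, Rps15a, Rps20 and the paralog Rpl39l. All 11 were read at their own locus. Over all genes measured on the 3 arrays, 5412 of 15272 had the same value on each. Another 14 members had equal untreated and EEC+TMA values and a different TMA value. How many of all genes did so was not counted. The TMA value was the lowest of the 3 in 34 members and the highest in 17. Of the 15272 genes measured on all 3 arrays, it was the lowest in 4585 and the highest in 2128.

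The paralogs, encoded by separate genes and often limited to certain tissues, did not go one way. Rps27rt, a retrotransposed copy of Rps27, read 8.23, 7.42 and 8.34 with a type 3 probe set. The TMA value was 1.76-fold under the untreated one, while Rps27 itself was below background at 2.97, 2.81 and 2.81. Rps27l, a p53 target, read 6.68, 6.31 and 6.68. Rpl36al read 4.46, 4.03 and 4.46, and Rpl7l1 4.63, 4.54 and 4.75. All 4 were lowest with TMA.

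Rpl3l, the paralog of striated muscle, read 3.93, 4.44 and 4.13. Rps4l read 4.59, 4.99 and 4.55. Both were highest with TMA. Rpl39l, known from male germ cells, read 3.75 on all 3 arrays. Rpl10l, also known from testis, was below background at 2.61 on all 3. Rpl22l1 was at 3.16, 3.16 and 2.85, above background on the untreated array only, and no fold was given.

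Of the 4 genes that are not subunits, Rps3a3 had the largest difference between the TMA and untreated arrays among the members measured on both. It read 8.34, 7.23 and 8.35, 2.16-fold lower with TMA, with a type 3 probe set at chr13:108670579-108671440. The difference of Rplp0, given above as a lower bound, may be larger. Rps3a1, the subunit gene it copies, read 4.33, 4.47 and 4.47. Rps19bp1 read 5.40, 4.99 and 5.40, and Rps3a2 4.35, 4.25 and 4.22. Rpl32l was below background.

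The members below background on all 3 arrays, for which no difference is given, included Rpl9, Rpl10l, Rpl11, Rpl17, Rpl22, Rpl24, Rpl32l, Rpl35, Rpl37, Rpl37a, Rplp2, Rps18, Rps26, Rps27 and Rps28. Their values ran up to 3.15. Measured on only some arrays were Rpl22l1, Rpl36a, Rplp0, Rps15 and Rps24. Rps15 read 2.93, 3.39 and 3.16, at least 1.18-fold higher with TMA than untreated. Rps24 read 3.32, 3.18 and 3.77, at least 1.42-fold higher with EEC+TMA than with TMA.

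The second comparison sets the EEC+TMA array against the TMA array. Of 71 members measured on both, 39 were higher with EEC+TMA, 20 lower and 12 identical, against 37.2%, 19.6% and 43.2% of all genes. The median was 0.10, against 0 for all genes. It was 0.08 after median centring but 0.00 after loess and 0.01 after quantile normalization. The higher and lower counts were then 37 and 34, 36 and 35, and 37 and 34. Under all of the deposited, loess and quantile scalings 32 members were higher (45.1%) and 20 lower (28.2%), where 28.7% of all genes were higher and 18.7% lower. At least 1.5-fold apart were 15 of the 71 members (21.1%), 13 higher and 2 lower. Of all genes 6.97% were this far apart (4.81% higher and 2.16% lower). With a mean log2 value of at least 6, 11 of 40 members (27.5%) were, against 14.3% of all genes. Of 42 members read at their own locus by unique probe sets, 5 were (11.9%). At least 2-fold apart were 3 members, Rpl38, Rps3a3 and Rps13, all higher, and 1.01% of all genes.

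Since the TMA array enters both comparisons, a member low on it is lower in the first and higher in the second by construction. Rpl38 was 2.21-fold higher with EEC+TMA, Rps3a3 2.18-fold, Rps13 2.14-fold, Rps2 1.95-fold and Rpl18 1.92-fold. Rps27rt was 1.89-fold and Rplp1 1.76-fold higher. Each of these 7 had its lowest value on the TMA array. Rpl29, a heparin-binding protein of the large subunit, differed from them: it read 4.78, 4.76 and 5.57, 1.76-fold higher with EEC+TMA than with TMA and 1.73-fold higher than untreated.

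On the lower side, Rplp0 was 1.72-fold under the TMA value. Smaller differences were those of Rpl5 (-0.52), Rpl35a (-0.50), Rps14 (-0.49), Rpl23 (-0.49) and Rps4l (-0.44).

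All 13 members read at another locus were higher with EEC+TMA, with a median of 0.42, and 9 of 13 after loess, with a median of 0.20. Members read at their own locus had a median of 0, with 24 higher and 16 lower of 52. The intron probe sets had a median of -0.28, with 4 of 6 lower. Of the 40 members above a mean of 6, 31 were higher (77.5%), where 69.3% of all genes at that level were higher. Above this mean, the 22 members read at their own locus had 17 higher and 1 lower, with a median of 0.31, against 12 of 12 higher and a median of 0.41 at another locus.

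**Figure D3:**
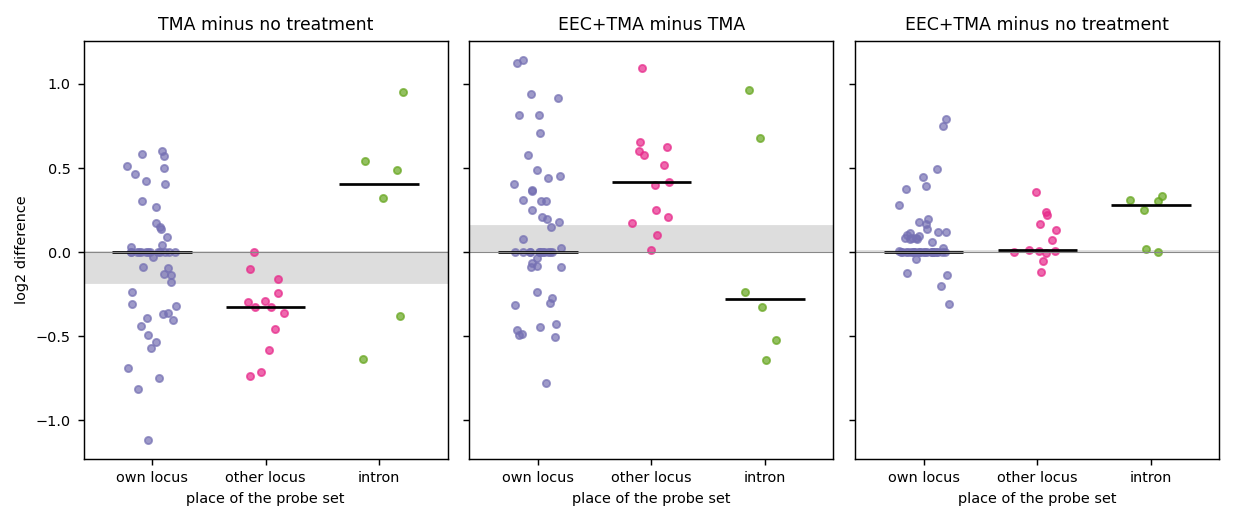
Log2 difference of each measured member (points, spread sideways for clarity) in the 3 comparisons, by the place of its probe set: own locus, another locus, or an intron. Black bars are medians, and the grey band spans the quartiles of all measured genes. The medians for TMA minus no treatment were 0, -0.32 and 0.41, and for EEC+TMA minus TMA 0, 0.42 and -0.28.

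The EEC+TMA and untreated arrays lay closest together for these genes. Of 71 members measured on both, 38 were higher with EEC+TMA, 8 lower and 25 identical, against 25.4%, 19.9% and 54.7% of all genes. The median was 0.01. With median centring 64 were higher and 7 lower, with loess 60 and 11, and with quantile normalization 63 and 7. Members identical in the deposited values enter these counts as small differences. The members' median became 0.04 with loess and 0.05 with quantile normalization, and that of all genes 0.01 and 0.02. All-gene counts for each scaling alone were not made. Under the deposited, loess and quantile scalings alike 38 were higher (53.5%) and 7 lower (9.86%), where 25.3% of all genes were higher and 18.4% lower. At least 1.5-fold apart were 2 members, both higher, where 4.06% of all genes were this far apart (0.893% higher). At least 2-fold apart were 0 members, against 1.18% of all genes.

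The 2 members were Rpl29, at 0.79, and Rpl39, at 0.75. Rpl39, a short protein at the exit tunnel, read 3.22, 3.26 and 3.97, near background on the first 2 arrays. Rpl7 was higher by 0.50, Rps24 by 0.45, Rpl38 by 0.40, Rpl18 by 0.37, Rps13 by 0.36 and Rps2 by 0.33. The untreated values of Rpl7 and Rps24, 3.29 and 3.32, were near background. The 8 lower members were Rpl36a (-0.31), Rps12 (-0.20), Rps3a2 (-0.13), Rpl4 (-0.12), Rpl27a (-0.12), Rpl41 (-0.05), Rps4l (-0.04) and Rpl31, whose values agreed within 0.01.

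The authors' deposited tables of probe sets far apart between arrays hold 198 probe sets for TMA against no treatment and 68 for EEC+TMA against TMA. None of the members' 113 probe sets was in either, and the smallest fold in these tables was 2.51.

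Other gene groups with many subunits were set beside the members. Of 39 measured proteasome subunits 27 were lower and 5 higher with TMA than untreated, with a median of -0.07, which turned to 0.04 after loess. Of 86 nuclear genes of the respiratory chain 55 were lower and 3 higher, with a median of -0.12, or -0.01 after loess and 0.00 after quantile normalization. Mitochondrial ribosomal proteins had 25 lower, 4 higher and 44 identical of 73, with a median of 0. With EEC+TMA against TMA, 31 of 39, 65 of 86 and 36 of 73 were higher. The share of higher members with TMA was 29.0%, against 12.8% of the proteasome, 5.48% of the mitochondrial ribosome and 3.49% of the respiratory chain. Of the 20 higher members 15 lay below the mean of 6, and above it 12.5% of the members were higher, against 6.90% of the proteasome, 9.52% of the mitochondrial ribosome and 0 genes of the respiratory chain. No test of these differences was possible with 1 array per group.

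**Figure D4:**
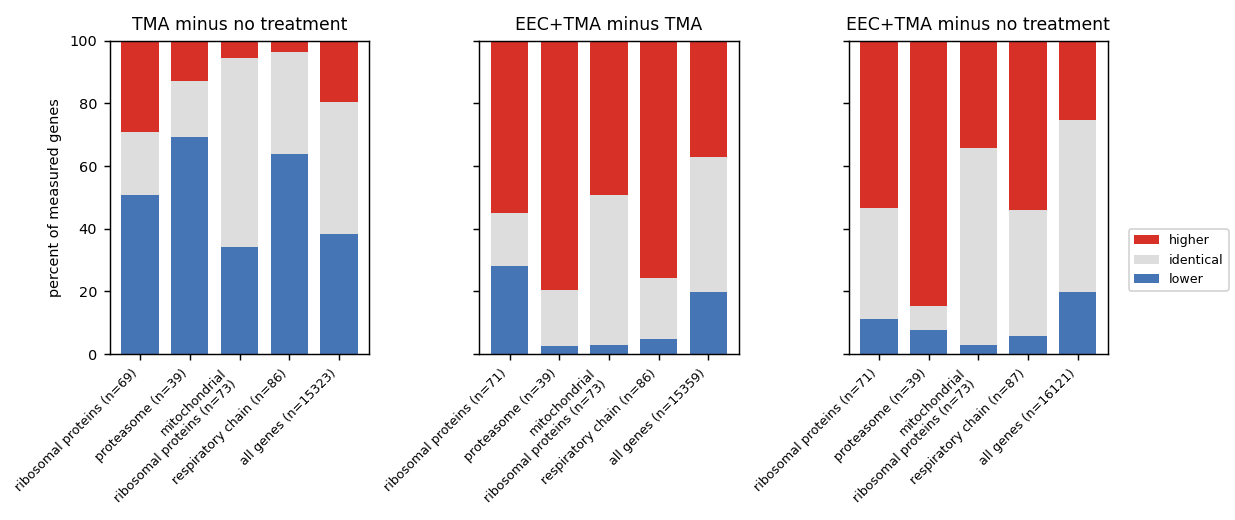
Percent of measured genes higher (red), identical (grey) or lower (blue) in each comparison, for ribosomal protein genes, 3 other groups and all genes, with the number measured under each bar. With TMA against no treatment 29.0% of the ribosomal protein genes were higher, against 19.4% of all genes.

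Ribosomal proteins outside the naming rule were read as well. Fau, a ubiquitin-like fusion that gives a small-subunit protein, read 8.35, 7.67 and 8.60. Gnb2l1, the older symbol of Rack1, read 5.84, 5.75 and 6.02. Both were lowest with TMA in the deposited values, but after loess Gnb2l1 was higher with TMA than untreated.

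Of 17 measured genes of other TOP mRNAs, 10 were lower and 2 higher with TMA than untreated, with a median of -0.08, which turned to 0.10 after loess. These 10 were 58.8%, against 38.5% of all measured genes and 71.5% of those with a mean log2 value of at least 6. Eef1b2, an elongation factor subunit, had the largest difference, at 7.91, 7.21 and 7.99. Pabpc1, the poly-A binding protein, read 3.75, 3.26 and 3.56. Gas5, a non-coding RNA, was higher, at 4.03, 4.18 and 4.03.

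Ribosome assembly genes were mostly identical: 22 lower, 3 higher and 31 identical of 56. Rpf2, which loads the 5S particle, read 4.43, 3.40 and 4.43, and Heatr1, a factor of the early small subunit, 5.65, 4.99 and 6.15. Nop56, a core protein of box C/D snoRNA particles, read 5.48, 6.07 and 5.52. Of 13 RNA polymerase I genes 6 were lower and 2 higher. Taf1d, a promoter factor, read 9.22, 10.13 and 9.29. For the genes of these lists the place of the chosen probe set was not determined. A value under their symbols may count a snoRNA or an intron, as for some members.

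Of 28 initiation factors 17 were lower and 2 higher, with a median of -0.10, which turned to 0.03 after loess. These 17 were 60.7%, against 38.5% of all measured genes and 71.5% of those with a mean log2 value of at least 6. Eif4g1, the scaffold of the cap-binding complex, read 8.89, 8.27 and 9.05. Eif4a2, a helicase, read 7.61, 8.37 and 7.63 and was the farthest higher with TMA. The place of its probe set was not determined either. Of 20 genes of mTORC1 and TOP mRNA control 10 were lower and 1 higher. Eif4ebp3, a translation repressor, read 5.26, 4.06 and 5.62, Mtor 6.69, 6.06 and 6.69, and Larp1 8.03, 7.43 and 8.08.

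Genes often used as references for mRNA level were lower with TMA in 12 of 15, with a median of -0.29 (-0.09 after loess) and 0 higher. Of all genes with a mean log2 value of at least 6, 71.5% were lower, with a median of -0.18. Gapdh read 11.12, 10.60 and 11.36, and Polr2a 6.75, 6.02 and 7.06. The snoRNA and small Cajal body RNA genes of the array had the opposite direction: 75 of 103 were higher and 17 lower, with a median of 0.38, and 0.53 after loess. With EEC+TMA against TMA 68 of 103 were lower and 22 higher, with a median of -0.26. The 6 intron probe sets of the members lie on genes of this class.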

How the data were processed

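Liver RNA of 3 groups was measured on 1 MoGene-2_0-st array each. The authors deposited log2 values per probe set, per the file headers; how they were background-corrected, summarised and normalized is not stated in the sources used here. Lists with a signed fold score for pairs of arrays were also deposited by the authors, and were read for membership only. Depth does not apply to arrays, and 1 array per group limits the precision.

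From the 33793 main probe sets, each symbol kept its brightest by mean over arrays. Log2 values were subtracted between arrays among genes at or above the 95th percentile of chemosensory receptor probe sets on both, and described by counts, medians and folds of at least 1.5 and 2, with no test. Probe sets were placed with the reference gene table of GRCm38.p6, in which all 90 members were found by gene ID. Promoter windows came from RefSeq. The counting was tested on simulated data with 200 changed genes. Python 3.11.15, numpy 2.4.6, pandas 2.3.3, statsmodels 0.14.6 (loess with a span of 0.3) and matplotlib 3.10.9 were used. Alternatives covered scaling, background level, choice of probe set, paralogs, size of fold and the series matrix values.

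Named genes were, per comparison, the 8 members farthest apart each way, all paralogs, all unmeasured members, 20 genes of known role, and up to 3 genes each way of each gene list. A few further members were named after their values were seen. The members and lists were chosen with earlier results of these data known. Some members and list genes that meet this rule are counted but not reported here by name.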

Additional observations from a re-analysis of the deposited data

How the results depend on the processing

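No paired analysis was possible because each group has 1 array. Over 150 recomputed values, 110 stayed within 0.1 (medians) or 1.5-fold (counts) of the value reported, 37 moved further and 3 medians changed sign. The cause was not tested. The margin of 0.1 is wide beside medians this small. For EEC+TMA minus TMA, medians of 0.0046 with loess and 0.012 with quantile normalization counted as within it of 0.10. The series matrix values repeated the reported values and are counted among the 110. For TMA minus no treatment the median of -0.03 turned to 0.022 with median centring, 0.031 with quantile normalization and 0.0093 with loess, and was -0.21 with background at the 99th percentile. Higher members numbered 35, 38, 35 and 8 under these settings instead of 20. Lower members numbered 16 with unique probe sets only, 21 with own-locus mRNA probe sets only and 23 with own-locus probe sets preferred, instead of 35. Members 1.5-fold apart numbered 5 with the mean of a symbol's probe sets, 4 with unique and 5 with own-locus probe sets instead of 9, and 1 at 2-fold. For EEC+TMA minus TMA the median of 0.10 was 0.25 with the 99th percentile and 0 with no background level, unique, own-locus only or own-locus preferred probe sets. Higher members numbered 18 (unique) and 24 (own locus) instead of 39, and lower members 34, 34, 35 and 8 (median centring, quantile, loess, 99th percentile) instead of 20. Members apart numbered 9, 8, 8 and 3 (mean, unique, own locus, 2-fold) instead of 15. For EEC+TMA minus no treatment, higher members numbered 64, 63, 60, 21 and 24 (median centring, quantile, loess, unique, own locus) instead of 38. With the scalings, members identical in the deposited values are counted by their new sign. Lower members numbered 13, 3 and 5 (no background level, unique, own locus) instead of 8, and members apart 1 (99th percentile) and 0 (2-fold) instead of 2. Own-locus settings were chosen after seeing the data. Fewer probe sets enter them by construction.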

Other observations

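Among the starts of members higher with TMA than untreated 1 of 20 had the TOP letters, among those lower 4 of 25 and among those with identical values 5 of 12. Among the lower ones, Rpl28 and Rps6 were read at another locus, and their own-locus probe sets were identical on all 3 arrays. Rps27rt was read by a type 3 probe set. The split by direction therefore depends on the choice of probe set. Shares by direction over all starts were not counted. These counts describe 3 arrays and were not tested.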
